A study of Homo sapiens with 16 samples.

Results

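The comparison set Hs606T against Hs343T, 2 human lines that the labels describe as breast cancer cell lines and the study as poorly invasive, on the arrays that carry the scrambled siRNA label (siSCR). It took 4 of the 16 Affymetrix U133 2.0 arrays of the study, 2 of each line, chosen by their sample titles, and every gene with a probe set of 1 symbol entered the analysis. Each line was transfected with a scrambled control siRNA and carried no construct, so the comparison gives the difference between the lines in that state. No untransfected arrays of these lines are among the 16. A response to transfection that differs between the lines therefore cannot be told apart from a baseline difference. The wider study is about RECK, a protein on the cell surface that restrains matrix metalloproteinases, and the expression changes that follow when its level is altered. Its other 12 arrays hold Hs343T and Hs606T with an siRNA labelled against RECK (siRECK, 2 arrays each), and the invasive lines MDAMB231 and LM24175 with an empty vector or a RECK construct (2 arrays in each of 4 groups). Whether both arrays of a line were hybridised with RNA of separate cultures is not in the labels. The p-values therefore rest on a spread that may be technical, and with 2 arrays a group precision is limited throughout.

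Cell lines grown from breast tumours can be epithelial or mesenchymal. Epithelial cells are held together by E-cadherin and EPCAM and filled with keratins, whereas fibroblasts secrete fibrillar collagens, decorin and lumican and depend on growth factor receptors of the PDGF family. Other programmes that vary between lines in culture are the interferon response, in which a signal from cell surface receptors switches on antiviral genes, and the cell cycle programme, in which E2F and FOXM1 raise the genes for DNA replication and mitosis in dividing cells.

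Values are log2 levels per array, differences are log2 Hs606T minus Hs343T, and a gene passed when its Benjamini-Hochberg adjusted p from limma was under 0.05. Of 11963 genes tested, 4408 passed, which is 36.8% of all genes. Of these, 2196 (18.4%) were higher and 2212 (18.5%) were lower in Hs606T, and 869 (7.26%) passed with a difference of at least 2-fold, 536 (4.48%) higher and 333 (2.78%) lower. Centring each array on its median moved the split to 1886 higher and 2725 lower (40.9% of calls higher, from 49.8%). Counts of list members in the comparison are to be read against the 18.4% higher and 18.5% lower of all genes. Some genes stand in more than 1 list, such as IL6 and IL11 in the NF-kB and IL-6 lists and VCAM1 in the NF-kB and adhesion lists. The counts of such lists are therefore not separate findings. The median difference over all genes was -0.05. For scale, LM24175 against MDAMB231 with empty vector gave 2489 genes past the threshold (20.8%) and 3.46% past it by at least 2-fold. That count was 1169 with only its 4 arrays in the fit, and 1466 and 1430 without the first and the second LM24175 array. Array medians ran from 6.47 to 6.52 on the 4 arrays. The 3′ minus 5′ control probe sets of GAPDH read 0.36 and 0.39 in Hs343T and 0.24 and 0.30 in Hs606T, and those of ACTB read 1.55 and 1.49 against 1.16 and 1.33. These RNA quality readings differed between the lines, and their part in the results was not tested. A level under the lower quartile of an array (5.02 to 5.10 on these 4 arrays) cannot be told from background here, because no detection calls were used. Where a line lay below it, the printed difference is that of the deposited values, and a fold is given as a lower bound, from the other line's mean to the lower quartile.

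Both lines carried the fibroblast markers, while the epithelial markers were split. All 10 fibroblast markers (COL1A1, COL1A2, COL3A1, DCN, LUM, PDGFRB, THY1, FAP, VIM and FN1) lay above the array median in each line, with a median level of 12.42 in Hs343T and 12.67 in Hs606T. Of 8 epithelial markers, KRT18 and KRT19 lay above the array median in both lines, while EPCAM, CDH1 and ESRP1 lay below the lower quartile in both. KRT8, CLDN4 and ELF3 met neither of these in either line. CDH1, the gene of E-cadherin, read 3.97 and 4.18 in Hs343T and 4.07 and 4.22 in Hs606T. Of 4 smooth muscle markers (MYH11, DES, CNN1 and ACTA2), 1 lay above the array median in Hs343T and 2 in Hs606T. None of the measured endothelial (3), leukocyte (4), adipocyte (3) or melanocyte (3) markers lay above the array median in either line. The label of a breast cancer line is therefore met by arrays with fibroblast markers, KRT18 and KRT19 but without EPCAM or E-cadherin above background. The lines are called here by their names alone. As these are bulk samples, fewer cells of a type and less RNA per cell cannot be told apart.

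RECK, the gene the siRNA targets, differed between the lines before any siRNA against it. Its brightest probe set read 6.07 and 5.52 in Hs343T and 8.74 and 8.65 in Hs606T. Both Hs606T arrays lay above both Hs343T arrays, a difference of 2.90 ± 0.16 (SE, adjusted p = 7.23e-08), or 7.45-fold. The other 2 probe sets of RECK gave -0.24 (adjusted p = 0.055) and -0.12 (adjusted p = 0.56), so the difference rests on 1 of 3 probe sets. On the arrays labelled siRECK the same probe set read 11.31 and 11.24 in Hs343T and 11.17 and 11.02 in Hs606T, above the scrambled arrays of both lines. On this probe set the target thus went against the siRNA labels, and those arrays are called by their label throughout.

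The 15 largest differences in each direction were -3.28 or beyond among the lower genes and 3.63 or more among the higher ones, and are shown by array in the plot of the largest genes. ERAP2, an aminopeptidase of the endoplasmic reticulum that trims peptides for MHC class I, read 4.11 and 3.53 in Hs343T and 10.15 and 10.10 in Hs606T. The Hs343T arrays lay below the lower quartile and the Hs606T arrays well above the median, a difference of 6.31 ± 0.18 (SE, adjusted p = 4.67e-10), or at least 32.6-fold. NEFL, the light chain of neurofilaments, ran the other way, with 11.30 and 11.19 in Hs343T and 3.32 and 3.48 in Hs606T. Its difference of -7.85 ± 0.15 (SE, adjusted p = 2.53e-11) held on all 3 of its probe sets. As both Hs606T values lay below the lower quartile, the difference is given as at least 74.1-fold. NEFM, the medium chain that assembles with NEFL, was looked up after the NEFL values were seen and read 10.85 on both Hs343T arrays against 7.74 and 7.48 in Hs606T.

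Several of the other genes high in Hs606T code for secreted or surface proteins. BCHE, the gene of butyrylcholinesterase, read 3.65 and 3.84 against 8.81 and 9.14 (difference 5.23). Its Hs343T mean lay below the lower quartile, which gives at least 14.7-fold. EFEMP1, a fibulin of the extracellular matrix, read 8.23 and 8.25 against 12.67 and 12.69 (difference 4.44). SCRG1 (3.90), FLRT3 (3.70), a fibronectin-leucine-rich transmembrane protein, and MOCOS (3.63), which sulfurates the molybdenum cofactor, were also higher. The Hs343T mean of FLRT3 lay below the lower quartile, which gives at least 5.82-fold. G0S2, an inhibitor of the lipase ATGL, read 7.67 on both Hs343T arrays and 12.05 and 12.02 in Hs606T. The nuclear receptor NR4A2 read 4.86 and 4.96 in Hs343T and 9.25 and 9.13 in Hs606T (difference 4.28), and all 3 of its probe sets passed. The Hs343T mean of NR4A2 lay below the lower quartile, which gives at least 17.1-fold. Its relative NR4A3, looked up after the values were seen, read 5.63 on both Hs343T arrays and 9.01 and 9.17 in Hs606T (difference 3.46, 2 of 3 probe sets).

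Among the genes low in Hs606T were 2 adhesion G protein-coupled receptors. ADGRL4 read 9.23 and 9.08 in Hs343T and 4.61 and 4.63 in Hs606T (difference -4.54), and ADGRG1 read 10.18 and 10.02 against 6.52 and 6.53 (difference -3.57, with 1 of its 2 probe sets past the threshold). BEX1 (-4.86), KYNU (-4.01), the kynureninase of tryptophan breakdown, and GAL (-3.44, 1 of 2 probe sets), the neuropeptide galanin, were lower as well. CD24, a glycosylated surface protein, read 8.79 and 8.68 against 4.59 and 4.93, and all 6 of its probe sets passed. MBP (-4.14) passed on 2 of 4 probe sets, and its Hs606T mean lay below the lower quartile, which gives at least 15.6-fold. GSTT2 (-3.99) and PRSS3 (-3.36) have near-identical copies in the genome, so their probe sets may read more than 1 gene.

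**Figure D1:**
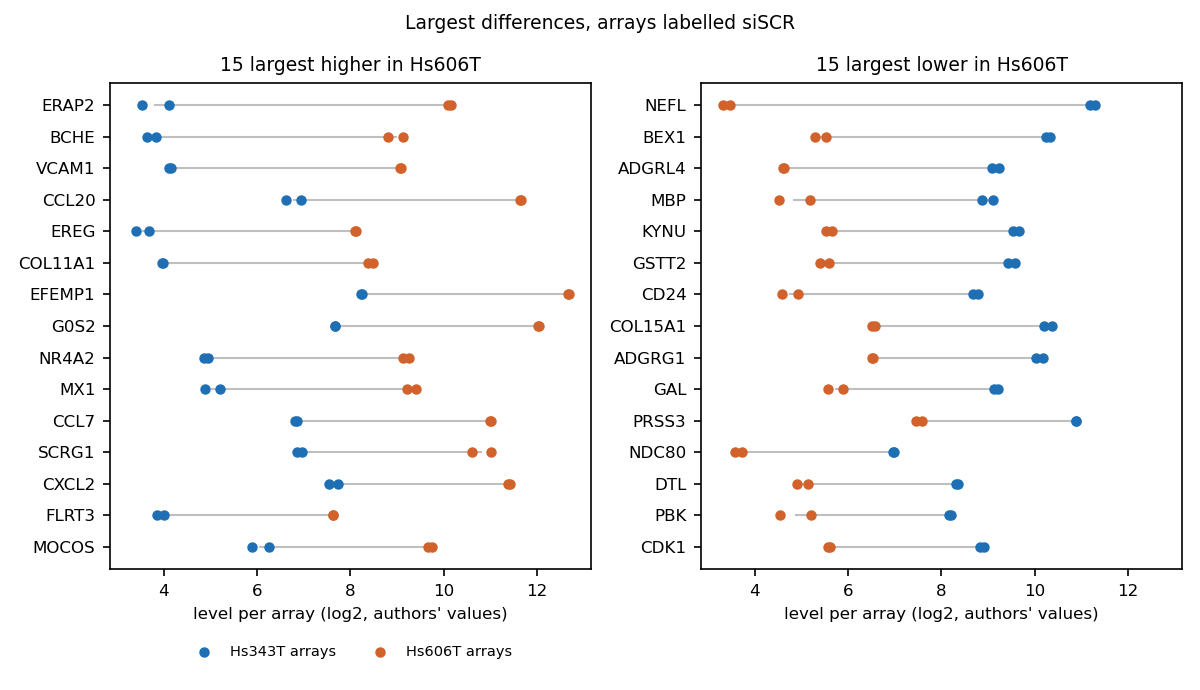
Level per array (log2, the authors' values, x axis) of the 15 largest higher and the 15 largest lower genes (y axis) on the 4 arrays labelled siSCR, with 2 points for each line and a grey line between the line means. In each gene the arrays of the lines do not overlap, from ERAP2 (difference 6.31) to MOCOS (3.63) on the left and from NEFL (-7.85) to CDK1 (-3.28) on the right.

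The interferon-stimulated genes were higher in Hs606T as a group. Of 45 measured members, 33 were higher and 2 were lower, against 18.4% and 18.5% of all genes, and the median member differed by 0.85. Of the 33, 20 were higher by at least 2-fold. The median level of the list was 6.32 in Hs343T and 7.61 in Hs606T. MX1, a GTPase that blocks viral replication, read 5.20 and 4.89 in Hs343T and 9.41 and 9.22 in Hs606T. The lines did not overlap, with a difference of 4.27 ± 0.13 (SE, adjusted p = 8.72e-10), which is at least 18.6-fold, since the mean of Hs343T lay below the lower quartile.

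Further antiviral effectors showed the same order of arrays. IFITM1, a membrane protein that hinders virus entry, read 7.63 and 7.72 against 10.76 and 10.80. DDX60, a helicase of the antiviral response, read 5.46 and 5.03 against 8.01 and 8.15. XAF1 (3.14), IFI44L (2.79) and IFI6 (2.68) followed, and IFI44L lay below the lower quartile in Hs343T. IFITM1 has close relatives on the same chromosome that its probe set may also read. The 2 members that were lower, CXCL9 (-0.75, adjusted p = 0.010) and IRF1 (-0.43, adjusted p = 0.026), lost the call without 1 array. CXCL9 had an adjusted p of 0.118 without the first Hs343T array and 0.081 without the first Hs606T array, and IRF1 had 0.167 without the second Hs343T array and 0.181 without the first Hs606T array.

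The 250 bases before the start of these genes were searched for a motif known from interferon-stimulated promoters, and the 2 members printed are the largest differences among passing members with the motif and a single start. The motif searched was GAAANNGAAA, the core of the interferon-stimulated response element (ISRE), on both strands. Windows are RefSeq promoters of GRCh38.p14, read 5′ to 3′ along the gene, chr11:313790-314039 on the plus strand for IFITM1 and chr4:168318753-168319002 on the minus strand for DDX60. Capitals mark the matches, and no match overlaps another.
IFITM1: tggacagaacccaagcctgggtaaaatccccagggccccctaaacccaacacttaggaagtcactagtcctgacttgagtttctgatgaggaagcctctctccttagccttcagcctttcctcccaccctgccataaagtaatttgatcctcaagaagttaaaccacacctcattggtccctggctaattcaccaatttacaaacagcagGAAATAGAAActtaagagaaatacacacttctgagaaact
DDX60: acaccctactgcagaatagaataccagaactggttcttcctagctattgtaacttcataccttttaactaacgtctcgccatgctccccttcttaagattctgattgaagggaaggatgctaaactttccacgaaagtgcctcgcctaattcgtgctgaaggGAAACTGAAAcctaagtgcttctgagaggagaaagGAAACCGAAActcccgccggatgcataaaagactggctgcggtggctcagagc
In IFITM1 the match began 40 bases before the start, and in DDX60 the 2 matches began 88 and 53 bases before it. A promoter window was found for 35 of the 45 members, and 24 of them (68.6%) held the motif, against 3.02% of 35116 promoter windows and 3.57% of the 9563 array genes with a window. A match describes the letters and not binding.

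The interferon genes and receptors looked up gave mixed values. IFNB1, the gene of interferon beta, read 4.30 and 4.22 in Hs343T and 3.87 and 4.15 in Hs606T. All 4 values lay below the lower quartile, and the difference of -0.25 did not pass (adjusted p = 0.104, and 0.037 at -0.39 without the second Hs606T array). Of the receptor chains, IFNAR1 differed by 0.22 (adjusted p = 0.167) and IFNAR2 by 0.28 (adjusted p = 0.033) on its brighter probe set, which lost the call when any 1 of the 4 arrays was left out (adjusted p from 0.085 to 0.146). The other probe set of IFNAR2 gave 1.38 (adjusted p = 9.41e-07 over all probe sets). These 3 genes were looked up after the list was described.

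Antigen presentation genes were also more often higher in Hs606T. Of 14 measured genes of MHC class I processing, 8 were higher and 1, HLA-E (-0.62), was lower, with a median of 0.60. The higher ones are 57.1% of the list, against 18.4% of all genes. PSMB9, a subunit of the immunoproteasome, read 6.71 and 6.88 in Hs343T and 9.56 and 9.44 in Hs606T, a difference of 2.70. Its partner PSMB8 read 8.64 on both Hs343T arrays against 9.61 and 9.58. HLA-C was higher by 1.02 (adjusted p = 0.0039, 3 of 4 probe sets), on probe sets that may also read other HLA genes. HLA-E did not pass without the second Hs343T array, which left 0 members lower. The fold of ERAP2 stood far apart from these, since the next member, PSMB9, differed by 2.70.

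Inflammatory cytokines and targets of NF-kB, the transcription factor that drives the response to TNF and IL-1, were also more often higher. Of 39 measured members, 22 were higher and 2, IL33 (-1.44) and IL1A (-1.08), were lower, with a median of 1.12. Both Hs606T arrays lay above both Hs343T arrays in 31 members and below them in 4, against 32.4% and 38.5% of all genes. When any 1 of the 4 arrays was left out, 1 member was lower. VCAM1, an adhesion molecule for leukocytes, read 4.11 and 4.16 in Hs343T, below the lower quartile, and 9.09 and 9.06 in Hs606T. Its difference was 4.94 ± 0.42 (SE, adjusted p = 2.84e-06). Among the chemokines, CCL20 read 6.63 and 6.95 against 11.66 and 11.63, CCL7 read 6.81 and 6.85 against a mean of 11.01 ± 0.017 (SD, n = 2), and CCL2 read 9.64 and 9.78 against 12.87 on both Hs606T arrays. Each of these attracts leukocytes, and in each the arrays of the lines lay far apart relative to the spread between arrays of a line. CXCL2 was higher by 3.77 on a probe set that may cross-hybridise with its close relatives. CXCL8, an attractant of neutrophils, differed by -0.24 (adjusted p = 0.555), with 14.21 and 14.33 in Hs343T and a mean of 14.02 in Hs606T.

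The promoters of the 2 largest members with a single start and a match to the NF-kB consensus are printed with the match in capitals, chr1:100719492-100719741 on the plus strand for VCAM1 and chr2:227813592-227813841 on the plus strand for CCL20, again from GRCh38.p14 and searched on both strands.
VCAM1: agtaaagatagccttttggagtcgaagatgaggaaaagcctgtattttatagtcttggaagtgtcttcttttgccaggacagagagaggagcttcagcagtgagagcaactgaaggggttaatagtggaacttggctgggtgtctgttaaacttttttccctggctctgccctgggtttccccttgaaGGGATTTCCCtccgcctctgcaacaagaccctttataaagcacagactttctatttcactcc
CCL20: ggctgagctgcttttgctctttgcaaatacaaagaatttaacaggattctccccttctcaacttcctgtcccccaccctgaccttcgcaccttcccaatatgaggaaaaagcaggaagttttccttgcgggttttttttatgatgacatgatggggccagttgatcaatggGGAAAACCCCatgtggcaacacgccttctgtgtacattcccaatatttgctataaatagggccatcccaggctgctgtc
The matches began 62 bases before the start in VCAM1 and 79 bases before it in CCL20. Of 30 members with a window, 15 (50%) held the consensus, against 5.21% of all windows and 8.09% of array genes.

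IL-6 signals through gp130 (IL6ST) and JAK kinases to STAT3, the factor named in the title of the study. IL6 read 11.77 on both Hs343T arrays and 13.35 and 13.29 in Hs606T, a difference of 1.55 ± 0.30 (SE, adjusted p = 0.0014). IL11, another ligand that uses gp130, read 9.49 and 9.50 against 12.55 and 12.54 (difference 3.06). STAT3 itself was higher by 0.48 (adjusted p = 0.0015, 1 of 2 probe sets), and IL6ST was lower (-0.37, adjusted p = 0.0043, 2 of 5 probe sets), though not in the mean of its probe sets (-0.10, adjusted p = 0.723). SOCS2, an inhibitor of cytokine receptors, read 7.22 and 7.50 against 10.65 and 10.74. Over the list of IL-6 family and JAK-STAT genes, 11 of 28 were higher and 2, PIAS3 (-0.40) and IL6ST, were lower, with a median of 0.27. Without the first Hs343T array or the second Hs606T array 1 was lower.

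Genes of DNA replication and mitosis were lower in Hs606T almost without exception. Of 56 measured cell cycle genes, 55 were lower and 0 were higher by limma (0 also at an unadjusted p under 0.05), against 18.5% and 18.4% of all genes, and the median difference was -1.73. By limma, 42 of the 56 were lower by at least 2-fold, against 2.78% of all genes, and both Hs606T arrays lay below both Hs343T arrays in all 56, which held for 38.5% of all genes. The 1 gene that did not pass was CCNE1, the cyclin of the entry into S phase, at -0.35 (adjusted p = 0.129, and 0.017 when only the 4 arrays compared entered the fit). Leaving out 1 array at a time left 50 or 51 lower members and 0 higher.

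The genes with the largest differences act from DNA synthesis to cell division. CDK1, the kinase that drives entry into mitosis, read 8.92 and 8.84 in Hs343T and 5.58 and 5.62 in Hs606T, a difference of -3.28 ± 0.10 (SE, adjusted p = 8.77e-10) that held on all 3 probe sets. BIRC5, or survivin, of the chromosomal passenger complex, read 8.66 and 8.69 against 5.42 and 5.38. RRM2, the small subunit of ribonucleotide reductase, read 10.24 and 10.10 against 6.91 and 7.14. Both lay above the lower quartile in both lines, and the arrays of the lines did not overlap. DLGAP5 (-3.14), TTK (-3.05), a kinase of the spindle checkpoint, and KIF20A (-3.04), a kinesin of cytokinesis, lay below the lower quartile in Hs606T, as did NDC80 (-3.32), a kinetochore protein among the 15 largest. DTL (-3.32), which directs CDT1 to degradation, and PBK (-3.31), a mitotic kinase, were lower too. Their Hs606T means lay below the lower quartile, which gives at least 9.91-fold and 8.94-fold. MKI67, the gene of the Ki-67 antigen, was looked up for its common use and read 6.23 and 6.35 against 4.85 and 5.32 (difference -1.20, adjusted p = 0.0018, 3 of 4 probe sets). The regulator FOXM1 differed less, at -0.56 (adjusted p = 0.029), and had adjusted p from 0.062 to 0.140 when any 1 of the 4 arrays was left out.

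Mitotic genes are known to carry CCAAT boxes and a cell cycle homology region (CHR) near their start. The search asked for CCAAT and TTTGAA in the same 250 bases, each on both strands. Printed are the 2 largest members with a single start that hold both, chr14:55191586-55191835 on the minus strand for DLGAP5 and chr1:43358731-43358980 on the plus strand for CDC20, an activator of the anaphase-promoting complex. Capitals mark every CCAAT and TTTGAA on either strand, and no match overlaps another.
DLGAP5: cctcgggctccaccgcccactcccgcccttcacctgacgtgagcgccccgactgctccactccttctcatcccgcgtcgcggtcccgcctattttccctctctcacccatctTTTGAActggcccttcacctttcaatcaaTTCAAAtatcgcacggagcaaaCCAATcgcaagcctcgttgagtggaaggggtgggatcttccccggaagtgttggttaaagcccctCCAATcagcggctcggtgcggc
CDC20: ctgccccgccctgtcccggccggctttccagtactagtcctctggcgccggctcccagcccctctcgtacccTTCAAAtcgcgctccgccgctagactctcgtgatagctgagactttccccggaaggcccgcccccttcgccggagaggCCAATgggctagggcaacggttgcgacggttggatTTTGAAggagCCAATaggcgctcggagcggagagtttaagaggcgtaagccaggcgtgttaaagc
CDC20 read 8.64 and 8.79 in Hs343T and 5.73 and 5.77 in Hs606T (difference -2.97). Both motifs were found in 16 of 46 members with a window (34.8%), against 4.69% of all windows and 5.47% of array genes.

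The list of cell cycle inhibitors and p53 targets, which also holds the D-type cyclins, showed no such order. Of its 28 members, 8 were higher and 8 were lower, with a median of 0.06. CCND2, a D-type cyclin of this list, was higher by 2.20 on 1 of 3 probe sets, from a level below the lower quartile in Hs343T. The other D-type cyclins, CCND1 (-0.82) and CCND3 (-0.77), were lower. CDKN3, a phosphatase that is itself expressed in dividing cells, read 8.04 and 8.08 against 6.27 and 6.21. BAX (0.92) and TNFRSF10B (0.95), a death receptor, were higher.

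**Figure D2:**
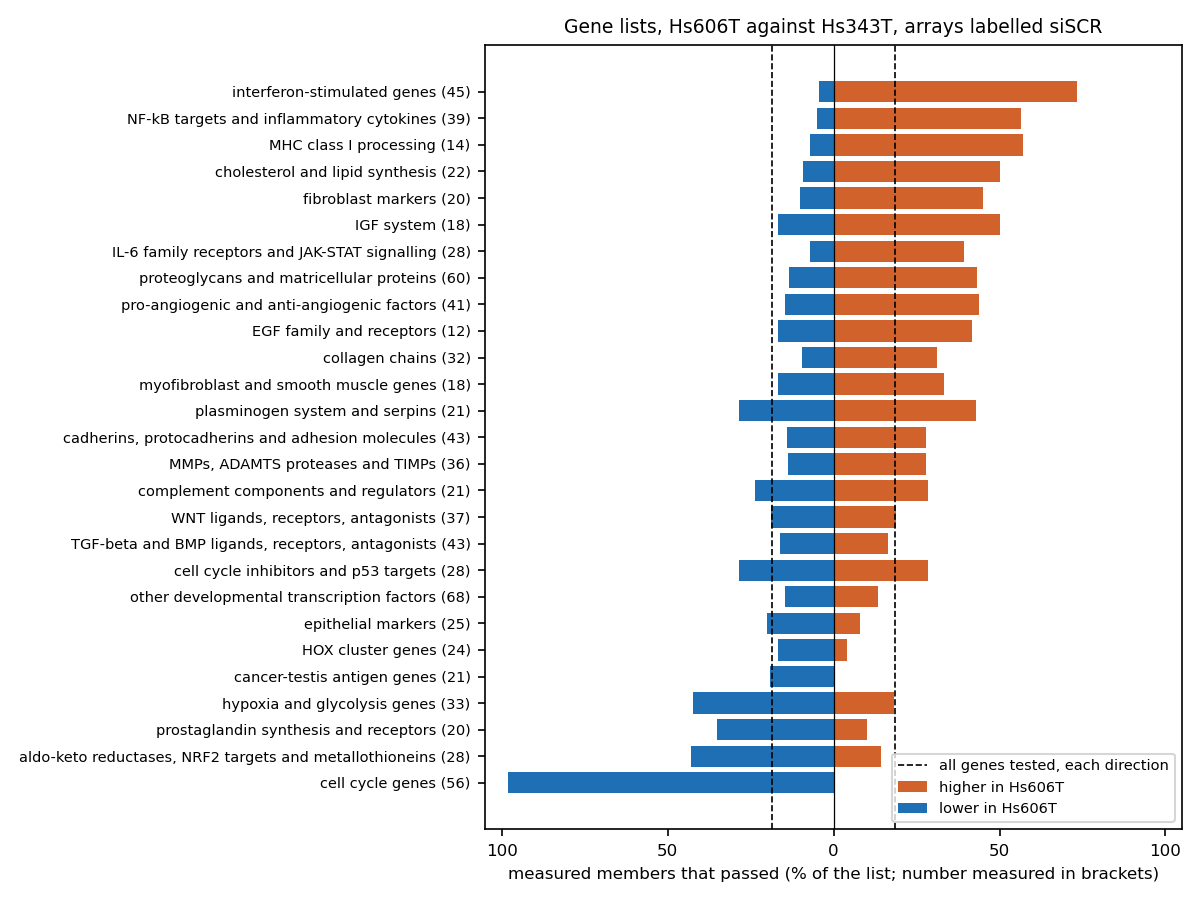
Share of the measured members of each gene list (number measured in brackets) that passed in the comparison of the arrays labelled siSCR, higher in Hs606T to the right and lower to the left (x axis, percent). The dashed lines mark the 18.4% and 18.5% of all genes, and the interferon (33 of 45 higher) and cell cycle (55 of 56 lower) lists reach farthest from them.

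Many matrix genes differed in RNA level between the lines, more of them higher in Hs606T. Of 60 proteoglycans and matricellular proteins, 26 were higher and 8 were lower (median 0.28), and of 32 collagen chains, 10 were higher and 3, COL15A1, COL4A5 (-1.55) and COL5A3 (-0.54), were lower (median 0.23). When only the 4 arrays compared entered the fit, 16 chains were higher. COL11A1, a minor chain of fibrillar collagen, read 3.99 and 3.97 in Hs343T, below the lower quartile, and 8.48 and 8.38 in Hs606T. Both of its probe sets passed. COL15A1, a basement membrane collagen, read 10.38 and 10.21 in Hs343T and 6.52 and 6.59 in Hs606T. The basement membrane chain COL4A2 ran against it, at 9.91 and 9.82 in Hs343T and 12.29 and 12.28 in Hs606T. COL8A1 was higher by 2.52 on 1 of 2 probe sets. Its Hs343T mean lay below the lower quartile, which gives at least 2.13-fold. The chains of type I collagen did not pass (COL1A1 0.47, adjusted p = 0.201, and COL1A2 0.29, adjusted p = 0.482). Both did when only the 4 arrays compared entered the fit (adjusted p = 0.0059 and 0.024). COL3A1 passed narrowly at 0.52 (adjusted p = 0.049) on its brightest probe set. It gave 0.51 to 0.53 but lost the call when any 1 array was left out. With every probe set tested alone, this one did not pass (adjusted p = 0.055). In that test 1 of the 4 COL3A1 probe sets passed, at 0.77 (adjusted p = 8.4e-05).

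Other matrix genes were higher by several fold. CRISPLD2 (2.65), FBLN1 (2.62, 3 of 5 probe sets), a fibulin, and TNC (2.58, 1 of 2 probe sets), the glycoprotein tenascin-C, each separated the lines. In the list of fibroblast markers, 9 of 20 were higher and 2, S100A4 (-1.14) and P4HA1 (-0.37), were lower (median 0.38). FAP, a surface protease of activated fibroblasts, read 9.36 and 9.18 against 11.62 and 11.65, and POSTN, or periostin, read 11.66 on both Hs343T arrays against 13.78 and 13.86. LUM (1.60) and DCN (1.50), both small leucine-rich proteoglycans, were higher. VIM (-0.04, adjusted p = 0.660), FN1 (0.20, adjusted p = 0.563) and THY1 (0.04, adjusted p = 0.877) did not pass on the probe sets used. Of the other probe sets, 1 of THY1 passed in the other direction, and 2 of FN1 passed as higher in Hs606T (1.04 and 0.76).

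Contractile genes were split. Of 18 myofibroblast and smooth muscle genes, 6 were higher and 3 were lower (5 lower when only the 4 arrays compared entered the fit), and the median of -0.11 lay on the other side of 0 from most of the calls. CNN1, or calponin, read 7.14 and 7.19 against 9.86 and 9.84, and MYLK, the myosin light chain kinase, read 9.35 and 9.46 against 10.85 and 10.84. MYL9 (-0.83), CNN2 (-0.83) and LRRC15 (-0.68) were lower. ACTA2, the smooth muscle actin, was higher by 0.58 (adjusted p = 0.039, 1 of 2 probe sets), but had adjusted p from 0.081 to 0.168 when any 1 array was left out.

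Of 25 keratins and other epithelial genes, 5 were lower and 2 (8%) were higher, against 18.5% and 18.4% of all genes, so the share of lower members lay near the background and that of higher ones under it. KRT14 read 6.61 and 6.64 in Hs343T and 3.80 and 3.75 in Hs606T, KRT18 read 10.20 and 10.17 against 8.34 and 8.35, and KRT15 differed by -1.30. The Hs606T mean of KRT14 lay below the lower quartile, which gives at least 3.02-fold. KRT19 ran the other way, at 9.84 and 9.85 against 10.70 and 10.65. KRT8 (-0.75) had an adjusted p of 0.084 without the second Hs343T array. EPCAM passed at 0.57 (adjusted p = 0.031) although all 4 of its values lay below the lower quartile, and it had an adjusted p of 0.218 without the first Hs343T array, 0.164 without the first Hs606T array and 0.054 without the second. CLDN3 (-0.28) was the fifth lower member. Without the second Hs343T array 3 members were lower.

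The proteases and inhibitors of matrix turnover, to which RECK belongs, differed in both directions. The list holds 36 measured genes, which are MMPs, ADAM and ADAMTS proteases, TIMPs and RECK itself. Of them, 10 were higher and 5 were lower (median 0.03), and the lower ones were ADAMTS1, TIMP3, MMP3 (-0.75), ADAM19 (-0.73) and MMP15 (-0.49). Of the 36, 5 were higher and 2 were lower by at least 2-fold, against 4.48% and 2.78% of all genes. The 5 were RECK, on 1 of its 3 probe sets, ADAMTS5, MMP12, ADAM23 (1.23) and ADAM17 (1.12). Without the second Hs343T array or either Hs606T array, 3 were lower. Among the targets of RECK, MMP2 was higher by 0.75 (adjusted p = 0.0056), while MMP9 (-0.25, adjusted p = 0.446) and MMP14 (-0.01, adjusted p = 0.978) did not pass. Without the second Hs343T array MMP9 gave -0.68 (adjusted p = 0.020). The 95% interval of the MMP14 difference ran from -0.28 to 0.27. MMP1, an interstitial collagenase, was higher by 0.51 (adjusted p = 0.014), with adjusted p of 0.079 without the second Hs343T array and of 0.059 and 0.063 without the first and the second Hs606T array. MMP12 (1.60) and ADAMTS5 (1.91), an aggrecanase, were higher, and ADAMTS1 read 12.24 and 12.25 against 10.61 and 10.47. The Hs343T mean of ADAMTS5 lay below the lower quartile, which gives at least 1.88-fold. Of the tissue inhibitors, TIMP3 was lower (-1.27, adjusted p = 0.00071), at 12.71 and 12.75 in Hs606T, whereas TIMP1 (-0.13, adjusted p = 0.721) and TIMP2 (0.07, adjusted p = 0.631) did not pass.

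In the list of plasminogen system genes and serpins, 9 of 21 were higher and 6 were lower. The higher ones did not include an activator of plasminogen. Both activators, PLAU and PLAT (-1.61), were lower. The receptor PLAUR (0.27, adjusted p = 0.068) and PLG (0.10, adjusted p = 0.590), the gene of plasminogen, did not pass. PLAU, the urokinase that turns plasminogen into plasmin, read 10.49 and 10.56 in Hs343T and 8.46 and 8.42 in Hs606T. THBD, or thrombomodulin, read 7.74 and 7.77 against 10.80 and 10.82. SERPIND1, which inhibits thrombin, was lower (-2.56), and SERPINI1 was higher (2.06) from a level below the lower quartile.

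Adhesion molecules included some of the clearest separations. Of 43 measured, 12 were higher and 6 were lower (median 0.05). DSG2, a desmosomal cadherin, read 7.51 and 7.38 in Hs343T and 10.96 and 11.02 in Hs606T. CDH10, a classical cadherin known from brain, read 4.04 and 3.91, below the lower quartile, against 7.36 and 7.43.

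Angiogenic factors were more often higher in Hs606T, with some lower. Of 41 pro-angiogenic and anti-angiogenic factors, 18 (43.9%) were higher and 6 (14.6%) were lower (median 0.27), against 18.4% and 18.5% of all genes. VEGFA, the main endothelial growth factor, read 12.01 and 11.98 in Hs343T and 12.25 and 12.28 in Hs606T. The difference of 0.27 did not pass (adjusted p = 0.506), but did when only the 4 arrays compared entered the fit (adjusted p = 0.028), and 1 of the other 3 probe sets passed at 0.57 (adjusted p = 0.049 over all probe sets). EFNB2, the ligand ephrin-B2, read 3.01 and 3.10 against 6.64 and 6.56 on the brighter of 2 probe sets, and the coreceptor NRP2 read 6.24 and 5.93 against 9.01 and 8.87, with all 5 probe sets past the threshold. PDGFD was higher by 1.79. The Hs343T means of EFNB2 and PDGFD lay below the lower quartile, which gives at least 2.83-fold and 2.85-fold.

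Ligands of growth factor receptors differed singly. EREG, an EGF family ligand, read 3.40 and 3.69, below the lower quartile, in Hs343T and 8.11 and 8.13 in Hs606T, and TGFA, another ligand of the EGF receptor, read 8.20 and 8.09 against 10.71 and 10.73. NRG1 was lower (-1.56, 2 of 6 probe sets). Over the EGF family list, 5 of 12 were higher and 2, NRG1 and HBEGF (-0.47), were lower. In the IGF system, 9 of 18 were higher and 3, STC2, IGFBP4 (-0.72) and IGFALS (-0.34), were lower (1 without the second Hs343T array). PAPPA, a protease that frees IGF from its binding proteins, read 8.41 and 8.44 against a mean of 10.11 ± 0.153 (SD, n = 2). Its relative PAPPA2 was higher by 2.89 on its brightest probe set, but another of its 3 probe sets passed in the other direction, and the same was true of STC1 (1.18), which did not pass in the mean of its probe sets (0.47, adjusted p = 0.060).

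The TGF-beta and WNT lists held as many higher as lower members. In the TGF-beta and BMP list, 7 of 43 were higher and 7 were lower, and in the WNT list, 7 of 37 and 7, so each share lay near or under the background. Without the first or second Hs343T array 4 members of the TGF-beta list were higher, without the first Hs606T array 3, and 13 when only the 4 arrays compared entered the fit. INHBB (1.71) and TGFB2 (1.63, 2 of 4 probe sets) were higher, and BMP2 read 10.53 and 10.50 against 9.06 and 9.11. The Hs343T mean of TGFB2 lay below the lower quartile, which gives at least 2.2-fold. GDF15 was higher by 2.73 on 1 of 2 probe sets with a wide error (SE 0.72, adjusted p = 0.011), and without the first Hs606T array its adjusted p was 0.052. The WNT antagonists SFRP1 (1.96) and SFRP4 (1.82) were higher, while the ligand WNT5B (-1.85) and the receptor FZD7 (-1.68) were lower.

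Complement genes were split as well, with 6 of 21 higher and 5 lower (CLU -0.90, MASP1 -0.76, C1QA -0.51, C3AR1 -0.48 and CD55 -0.40). Without either Hs343T array or the first Hs606T array 3 were lower, and 8 after centring each array on its median. The proteases of the first component were high in Hs606T: C1R read 7.82 and 7.96 against 10.85 and 10.94, and C1S read 9.10 and 8.91 against 11.35 and 11.37. CFB (2.37, 1 of 2 probe sets) and C3 (1.85), the centre of the cascade, were higher.

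Among metabolic genes, those of sterol synthesis were more often higher and those of glycolysis more often lower. Of 22 genes of cholesterol and lipid synthesis, 11 were higher and 2, INSIG2 (-0.40) and MVK (-0.34), were lower (median 0.40), with 0 lower without the first Hs343T array and 1 without any of the other 3. HMGCS1, an early enzyme of the mevalonate pathway, read 8.29 and 8.15 in Hs343T and 9.70 and 9.69 in Hs606T, and INSIG1 (1.05), IDI1 (0.91) and LSS (0.86, 2 of 3 probe sets) were higher. Of 33 hypoxia and glycolysis genes, 14 were lower and 6 were higher (median -0.19), and the largest lower one was GPI, glucose-6-phosphate isomerase, at 11.50 and 11.52 against 10.08 and 10.07. EPAS1, or HIF-2 alpha, was higher by 1.58 on 1 of 2 probe sets, and CA12 (1.55, 5 of 6 probe sets) and ADM (0.95) were higher.

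The list of aldo-keto reductases, NRF2 targets and metallothioneins and that of prostaglandin genes held more lower than higher members in Hs606T. A separate list of 27 glutathione S-transferases and other detoxication genes had 5 (18.5%) higher and 7 (25.9%) lower (median -0.05), against 18.4% and 18.5% of all genes. Of 28 aldo-keto reductases, NRF2 targets and metallothioneins, 12 were lower and 4, ME1 (0.89), HMOX1 (0.57), SLC7A11 (0.56) and TXNRD1 (0.49), were higher (median -0.23). AKR1B10 (-1.39), AKR1C2 (-1.32) and AKR1C3 (-1.32) belong to a family of close relatives whose probe sets may cross-hybridise. The metallothionein MT1M read 9.91 and 9.63 against 8.35 and 8.44. Of 20 prostaglandin genes, 7 were lower and 2, PTGIS (1.23) and PTGDS (0.38), were higher, with 1 higher without the first Hs343T array or either Hs606T array. PTGS1, or cyclooxygenase 1, read 10.82 and 10.87 against 9.26 and 9.39 (2 of 3 probe sets), and the phospholipase PLA2G4A, which releases arachidonic acid, read 11.21 and 11.17 against 9.66 and 9.80. PTGFR, the receptor of prostaglandin F, was lower (-1.46).

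Genes of positional identity and lineage passed at shares near or under those of all genes. Of 24 HOX genes, 4 were lower (HOXB5 -0.84, HOXB3 -0.49, HOXB7 -0.45 on 2 of 3 probe sets and HOXC5 -0.40) and 1 (4.17%), HOXD12 (0.40), was higher at levels below the lower quartile, and HOXD12 had adjusted p from 0.053 to 0.159 when any 1 array was left out. The Hs606T mean of HOXB3 lay below the lower quartile, which gives at least 1.1-fold. Of 68 other developmental transcription factors, 9 were higher and 10 were lower. TFAP2A read 9.68 and 9.69 against 7.84 and 7.65 on 1 of 3 probe sets, IRX5 read 7.45 and 7.59 against 5.84 and 5.85, and MEIS1 ran the other way at 7.99 and 8.03 against 9.73 and 9.76. OSR2 differed by -1.61 at levels near or below the lower quartile. Of 21 cancer-testis antigen genes, 4 (19%, near the 18.5% of all genes) were lower and 0 were higher by limma, while 1, DDX43, was higher at an unadjusted p under 0.05 and had an adjusted p of 0.088. When the dimmest genes were left out, MAGEC2 was the 1 of the 4 that was still tested, and it passed. MAGEC2 read 7.49 and 7.54 in Hs343T and 5.05 and 4.98 in Hs606T (1 of 2 probe sets). MAGEA6 (-1.99), MAGEA12 (-1.93) and MAGEA1 (-0.90) belong to 1 gene family and may share signal. The Hs606T means of MAGEC2, MAGEA6 and MAGEA12 lay below the lower quartile, which gives at least 5.59-fold, 1.83-fold and 1.36-fold.

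The 4 arrays labelled siRECK compare the same lines on arrays that share no sample with the scrambled ones. There, 5410 genes (45.2%) passed, 2859 (23.9%) higher and 2551 (21.3%) lower in Hs606T. Centring each array on its median moved the share of higher calls from 52.8% to 41.6%. Of the 4408 genes that passed on the scrambled arrays, 2765 passed in the same direction on the arrays labelled siRECK, which is 62.7% of the first list and 51.1% of the second. Among the 63 genes that differed by at least 8-fold on the scrambled arrays, 38 higher and 25 lower, 57 passed in the same direction. NEFL (-7.85 and -7.68), BCHE (5.23 and 5.43), COL11A1 (4.45 and 4.49) and COL15A1 (-3.74 and -3.72) gave near the same difference on both sets of arrays, and the test of the difference between the sets did not pass for any of them (adjusted p from 0.66 to 0.95). On the scrambled arrays NEFL lay below the lower quartile in Hs606T, and BCHE and COL11A1 did in Hs343T.

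The line difference itself differed between the 2 sets of arrays in 2436 genes (20.4%), 1393 (11.6%) toward higher and 1043 (8.72%) toward lower. The interferon list turned over between the sets. On the arrays labelled siRECK, 44 of 45 members were lower in Hs606T and 0 were higher by limma (0 also at an unadjusted p under 0.05), against 21.3% and 23.9% of all genes, with a median of -2.39. The remaining member was IFITM3 (-0.14, adjusted p = 0.27). The line difference itself differed between the sets in all 45 members, in the same direction, against 8.72% of all genes. The median level of the list was 12.14 in Hs343T and 9.31 in Hs606T on those arrays, so it was above the scrambled arrays in both lines and more so in Hs343T. MX1 read 13.18 and 13.22 in Hs343T and 11.19 and 11.24 in Hs606T there, and its line difference turned from 4.27 to -1.98. IFNB1 read 12.80 and 12.73 in Hs343T and 4.21 and 4.33 in Hs606T.

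The median difference of the NF-kB list and of the cell cycle list was nearer to 0 on the arrays labelled siRECK. Of the 39 NF-kB members, 13 were higher and 11 were lower there (median 0.10 against 1.12), beside 23.9% and 21.3% of all genes. The test of the difference between the sets passed in 19 of them, all toward lower, against 8.72% of all genes. CCL20 was higher in Hs606T by 2.38 there against 4.86 on the scrambled arrays, while VCAM1 differed by 0.15 against 4.94 and CCL2 by 0.07 against 3.16. Of the 56 cell cycle genes, 32 were lower and 5 were higher there (ASPM 0.86, CENPE 0.80, RFC4 0.59, MCM6 0.35 and PCNA 0.29), with a median of -0.50, and the line difference differed between the sets in 40, all toward higher, against 11.6% of all genes. The median level of the list was 7.78 in Hs343T and 5.90 in Hs606T on the scrambled arrays, and 6.72 and 5.93 on the arrays labelled siRECK. The list thus stood lower in Hs343T on the latter, while the medians of Hs606T lay close together. Over all genes, 329 passed in opposite directions on the 2 sets, 32 of them in the interferon list and 5 in the cell cycle list.

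**Figure D3:**
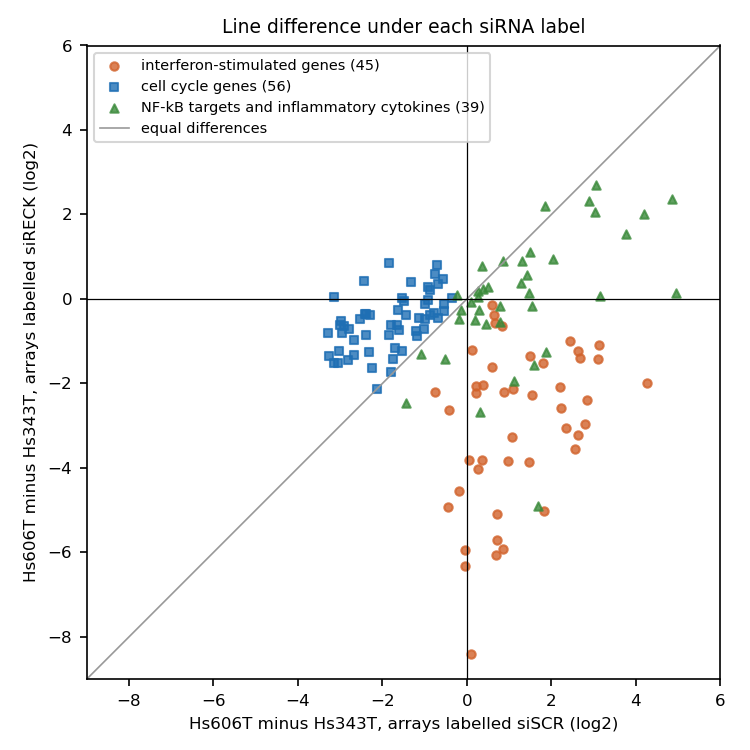
Difference between the lines (log2, Hs606T minus Hs343T) on the arrays labelled siSCR (x axis) and on those labelled siRECK (y axis) for the interferon, cell cycle and NF-kB lists, 1 point per gene, with the line of equal differences. Of the 45 interferon members, 39 lie to the right of 0 and all lie below 0 on the y axis (medians 0.85 and -2.39), and the cell cycle members lie left of 0 (median -1.73) and nearer to 0 on the y axis (median -0.50).

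**Figure D4:**
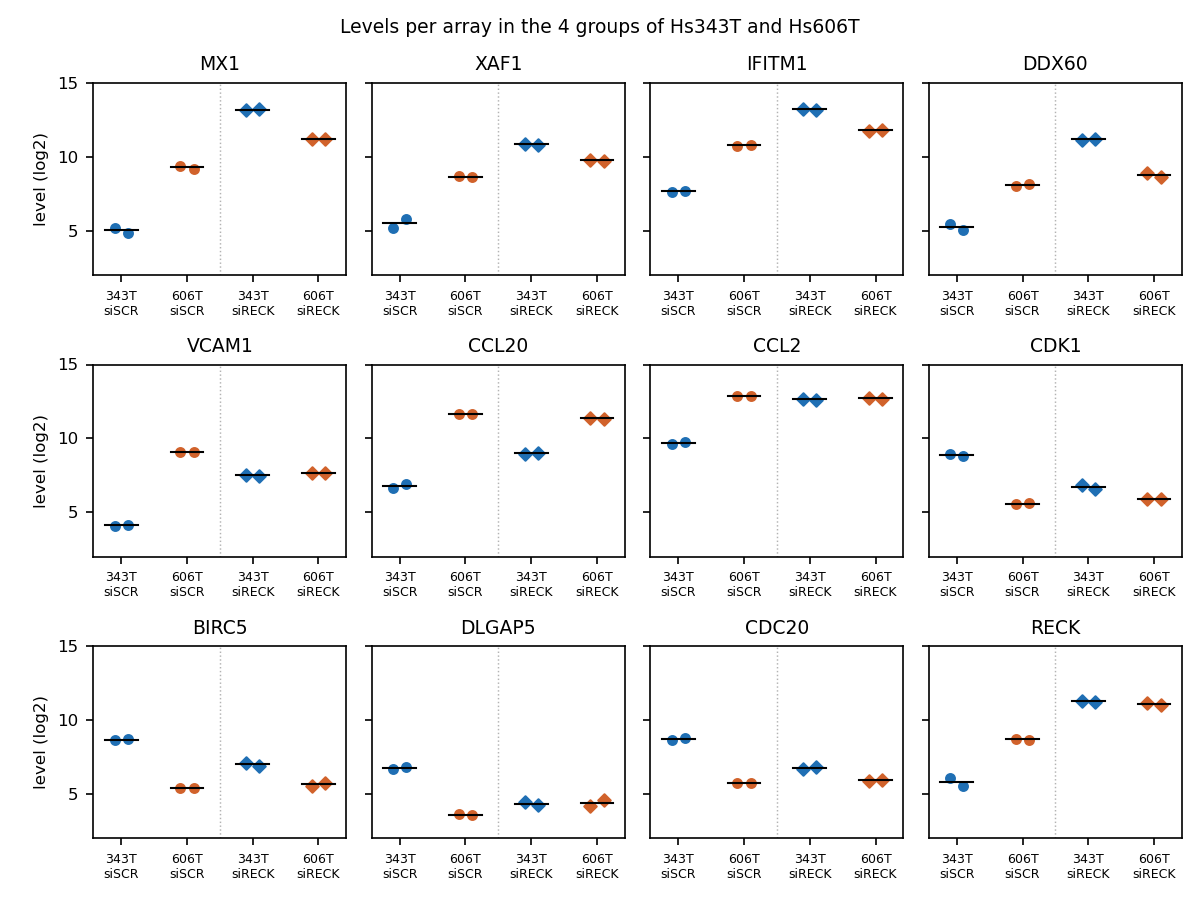
Level per array (log2, y axis) of 12 genes in the 4 groups of Hs343T and Hs606T (x axis), with 2 points per group and a bar at their mean. MX1, XAF1, IFITM1 and DDX60 are higher in Hs606T on the siSCR arrays and higher in Hs343T on the siRECK arrays, while CDK1, BIRC5 and CDC20 are lower in Hs606T in both.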

How the data were processed

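Messenger RNA was hybridised to 16 Affymetrix U133 2.0 arrays. The authors deposited log2 values per probe set, made with Partek per the labels and the submitters' processing notes. How probes were summarised and scaled is not given in the sources used here. Values were used as deposited. Probe sets (22277) took their gene symbols from the annotation of the array, in which 1043 have several symbols and 2164 have no entry. After 62 control probe sets were left out, 19064 with 1 symbol gave 11963 genes, each represented by whichever of its probe sets was brightest on average. Symbols of 19052 of these matched the current gene table. One probe set per gene can miss a transcript, so the text gives how many probe sets of a named gene passed where only some did.

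The model had 8 group means over the 16 arrays, fitted with limma 3.58.1 under R 4.3.3 (8 residual and 3.72 prior degrees of freedom, median residual SD 0.129), tests were 2-sided, and p-values were adjusted over all genes. The fit was checked on simulated data. Motif searches and plots used Python 3.11.15 with pandas 2.3.3 and matplotlib 3.10.9 (numpy 2.4.6).

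The members, the 47 gene lists (27 of them described with named members) and the tests were chosen with earlier results of these data known. The text names RECK, the 15 largest passing genes in each direction whose arrays do not overlap, up to 4 passing members of each list (6 in the interferon, NF-kB and cell cycle lists), the cell type markers, and 13 genes tied to STAT3 and invasion. NEFM, NR4A3, IFNB1, IFNAR1, IFNAR2, MKI67, CCNE1, FOXM1, IRF1, CXCL9, CDC20, PLAT, PLAUR, PLG and each gene given with its log2 difference alone to complete a small count were chosen after their values were seen. Replicate numbers do not pair the arrays of the 2 lines, and the check is given with the alternatives.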

Additional observations from a re-analysis of the deposited data

Results flagged for a closer look

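For 73 genes named in the report the line difference itself differed between the arrays labelled siRECK and those labelled siSCR, by limma's test of the interaction at an adjusted p under 0.05. Over all genes 2436 (20.4%) passed this test. Each value is the log2 difference Hs606T minus Hs343T under the siRECK label minus that under the siSCR label, and 28 of the 73 were above 0 and 45 below. Because most of these genes were named for a large difference on the siSCR arrays, a value toward the other side is partly set by how they were chosen. The part of the RECK level, which on its brightest probe set went against the siRNA label, was not tested. The levels of its other probe sets on the arrays labelled siRECK are not given here.

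Among the antiviral and antigen presentation genes every value was below 0. IFNB1 gave -8.25, MX1 -6.25, IFI44L -5.76, DDX60 -5.22, IFITM1 -4.53, XAF1 -4.22, IFI6 -4.08, IRF1 -2.21 and CXCL9 -1.45. PSMB9 gave -5.22, PSMB8 -2.46, ERAP2 -2.46 and HLA-C -1.63. The inflammatory genes were also below 0, with VCAM1 at -4.79, CFB at -3.67, CCL2 at -3.10, CCL20 at -2.48, CXCL2 at -2.22, CCL7 at -2.17, C1R at -1.79, IL6 at -1.71 and C1S at -1.13. In the cytokine signalling genes SOCS2 gave -1.82, STAT5A -0.98 and STAT3 -0.64.

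Among the genes of dividing cells every value was above 0. DLGAP5 gave 3.19, CDK1 2.48, PBK 2.29, CDC20 2.16, NDC80 1.95, BIRC5 1.92, CDKN3 1.87, KIF20A 1.80, RRM2 1.63, TTK 1.54, FOXM1 1.03 and DTL 0.93.

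Matrix, adhesion and contractile genes lay on both sides of 0. RECK itself gave -3.07, CRISPLD2 -0.83, MMP1 -0.78, COL4A2 -0.69, FLRT3 -0.86 and ADGRL4 -0.72, while PLAU gave 2.09, CNN2 1.32, MYLK 1.24, CNN1 1.12, FAP 0.87, EFEMP1 0.85 and POSTN 0.74. The keratins were split, with KRT14 at -2.41 and KRT18 at 1.94, KRT8 at 1.34 and KRT19 at 1.20.

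In ligands, receptors and transcription factors, OSR2 gave -3.10, NR4A2 -1.70, NRP2 -1.34, IRX5 -1.33, TGFA -1.05, EREG -0.90 and FZD7 -0.82, and BMP2 1.81, PTGFR 1.06 and EPAS1 1.05. The metabolic and remaining genes were KYNU at -2.31, ADM at -1.68, MT1M at -1.56, MOCOS at -1.21, HMGCS1 at -0.99, PLA2G4A at -0.97, INSIG1 at 0.56, BAX at 0.58 and MAGEA1 at 0.87.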

How the results depend on the processing

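On the arrays labelled siSCR the 4408 calls became 6992 with every probe set tested alone, which tests more features, and 869 with a 2-fold minimum, and they ran from 3318 to 3456 when 1 of the 4 arrays was left out. For the arrays labelled siRECK the corresponding counts were 8878, 1408 and 4399 to 4664 in place of 5410. The difference between the sets gave 800 calls with a 2-fold minimum and 1851 to 2108 without 1 array, in place of 2436. LM24175 against MDAMB231 with empty vector, tested for scale, gave 2489 calls, 414 with a 2-fold minimum, 1169 with only its 4 arrays in the fit and 1430 to 2413 without 1 array (1466 without the first and 1430 without the second LM24175 array). Quantile normalization, centring on the median, the mean of the probe sets, the filter on dim genes, eBayes with trend and robust, and leaving out 2 arrays of the invasive lines that deviate together kept each of these 4 counts within 1.5 times. The replicate number does not pair the arrays, with correlations of same-numbered arrays' deviations from -0.08 to 0.08 over the Hs343T and Hs606T groups, and with it as a block 4411, 5446, 2442 and 2483 genes passed.

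Of 145 named genes that passed, 0 reversed in any of these settings. Leaving out 1 array ended the call of 11 in at least 1 case, each given with its values in the report, and other settings without a 2-fold minimum ended the call of 7 (STC1, HOXD12, IL6ST, COL3A1, EPCAM, IFNAR2 and CXCL9). Of those that had not passed, 7 did in at least 1 setting (VEGFA, MMP9, COL1A1, COL1A2, PECAM1, CCNE1 and IFNB1). The cell cycle list kept 50 to 56 lower members and the interferon list 31 to 35 higher ones over all settings without a 2-fold minimum, with which 42 and 20 remained.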

Other observations

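The line difference between Hs606T and Hs343T was set beside that between the invasive lines for scale. LM24175 against MDAMB231 with empty vector, on 4 other arrays, gave 2489 genes past the threshold (20.8%), 414 (3.46%) of them by at least 2-fold, against 4408 (36.8%) and 869 (7.26%) here. Its count fell to 1169 with only its 4 arrays in the fit, and to 1466 and 1430 without the first and the second LM24175 array. The median level of the cell cycle list on the MDAMB231 empty vector arrays was 10.38, above the 7.78 of Hs343T and the 5.90 of Hs606T with scrambled siRNA. That of the interferon list was 7.95 there, nearer to Hs606T (7.61) than to Hs343T (6.32).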
